A study of Mus musculus with 2 samples.

Results

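The Kruppel-like factors (KLFs) are transcription factors that end in 3 zinc fingers and bind GC-rich and CACCC-type DNA. The 10 genes described here, Klf2, Klf3, Klf4, Klf5, Klf6, Klf7, Klf9, Klf10, Klf11 and Klf13, were taken by name from a deposited table of 55246 loci, which lists 17 Klf genes in all. RNA sequencing had been done on regulatory T cells (Treg cells) of female mice, taken from the lamina propria of the colon, the layer beneath the gut epithelium. The wild-type (WT) group and the Exon2KO group each held 1 library. Exon2KO mice carry an allele without exon 2 of Foxp3, the gene of the factor that defines Treg cells. The labels give no strain, age, sorting scheme or number of mice behind a library.

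KLFs set whether T cells stay quiet and where they travel. KLF2 keeps naive and memory T cells quiescent and drives genes for exit from tissue and entry into lymph nodes, and it is switched off when the T cell receptor is engaged. By their partners, the members fall into an activator branch (KLF2, KLF4, KLF5, KLF6 and KLF7), KLF3, a repressor that recruits CtBP proteins, and a branch that recruits Sin3 corepressors (KLF9, KLF10, KLF11 and KLF13).

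With 1 library per genotype the spread between samples is unknown. Every interval below covers counting error only, reads are not independent molecules, and no difference can be assigned to the genotype. The libraries held 16281133 (WT) and 15412425 (Exon2KO) reads assigned to genes. Foxp3 itself had 6991 and 20946 reads, a count over the whole gene that does not test the loss of 1 exon. Of 8 T cell and Treg cell markers none was at 0 in either library. By the rule given below 1 of the 8 was called higher in Exon2KO (Foxp3) and 1 lower (Ikzf2, 8476 and 440 reads). The ratio lay above 0 in 4 of them and below 0 in 4. Both libraries also held many reads of plasma cell genes (120089 and 113723 of Jchain).

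The DNA that encodes the third zinc finger is shown for every member, because it is what makes these genes a family and because near-identical sequence could divide reads wrongly among them. Each line is 63 bases of the GENCODE M21 transcript, and capitals mark the codons of the paired cysteines and histidines that hold the zinc ion. The activator branch and KLF3 come first.
Klf2: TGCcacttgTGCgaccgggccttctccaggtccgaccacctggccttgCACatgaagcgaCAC
Klf4: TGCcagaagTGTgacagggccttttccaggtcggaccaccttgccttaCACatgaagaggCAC
Klf5: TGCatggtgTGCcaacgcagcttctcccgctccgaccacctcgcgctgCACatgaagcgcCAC
Klf6: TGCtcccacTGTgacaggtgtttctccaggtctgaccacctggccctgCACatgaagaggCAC
Klf7: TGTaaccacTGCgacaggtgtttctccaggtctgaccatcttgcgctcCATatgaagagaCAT
Klf3: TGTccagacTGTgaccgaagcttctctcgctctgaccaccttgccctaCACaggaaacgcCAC
Klf9: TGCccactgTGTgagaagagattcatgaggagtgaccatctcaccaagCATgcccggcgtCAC
Klf10: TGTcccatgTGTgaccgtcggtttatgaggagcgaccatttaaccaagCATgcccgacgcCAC
Klf11: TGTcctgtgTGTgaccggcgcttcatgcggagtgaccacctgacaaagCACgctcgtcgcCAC
Klf13: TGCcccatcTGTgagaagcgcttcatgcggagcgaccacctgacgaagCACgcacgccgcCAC

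Over all 3 fingers (243 bases) the 45 pairs of members were 57.2% to 81.1% identical in DNA, with a median of 64.6%. The closest pairs were Klf6 with Klf7 (81.1%), Klf2 with Klf4 (78.2%) and Klf10 with Klf11 (76.1%). The longest run shared by any pair within the fingers was 26 bases. No stretch of 50 bases in a member's transcripts occurred in a transcript of another member. Klf7 shared 38.2% of its 50-base stretches with Gm26649, a non-coding gene on the opposite strand with 0 reads in both libraries. For the other 9 members the share held in common with any other gene was at most 3.48% (Klf3). Other loci overlapped Klf3, Klf7, Klf9 and Klf13, and none of these loci had more than 36 reads in a library. The use of strand in counting is not given in the sources used here, so reads of these overlaps cannot be told apart.

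All 10 members passed the minimum of 10 reads, summed over the libraries, and entered the test. Against 17363 genes tested, 2 of the 10 passed the rule used here, an adjusted p-value below 0.05 in a 2-sided exact binomial test of the reads of these 2 libraries together with a ratio of at least 2-fold. Klf2 was lower and Klf5 higher in the Exon2KO library. The rule was passed by 14.1% of all genes tested, 6.81% lower and 7.31% higher, so 2 of 10 members is close to the share over all genes tested. Over both libraries the members had between 106 reads (Klf5) and 15963 (Klf6), and their log2 ratios (Exon2KO against WT, 2 added as prior count) ran from -1.08 to 2.14. In 7 of 10 the ratio lay below 0, as it did in 49.7% of all genes tested, and the median was -0.29 against 0.0035 for all genes tested. At any fold, 8 of 10 members had an adjusted p-value below 0.05, 6 lower and 2 higher, beside 42.1% of all genes tested (22.3% lower and 19.8% higher). Among genes whose reads summed to 1000 or more that share was 63.0%, and it was 5 of 7 among the members of that depth. At that depth 4.73% of genes were called, beside 1 of 7 members, and 56.2% had a ratio below 0, beside 6 of 7 members. The medians were -0.044 for the genes and -0.30 for the members of that depth. The calls hold for these libraries only. If replicates were taken to vary with a biological coefficient of variation of 0.2, 1 member (Klf5) was called beside 6.42% of genes tested, and with 0.4 none was, beside 0.945%.

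**Figure D1:**
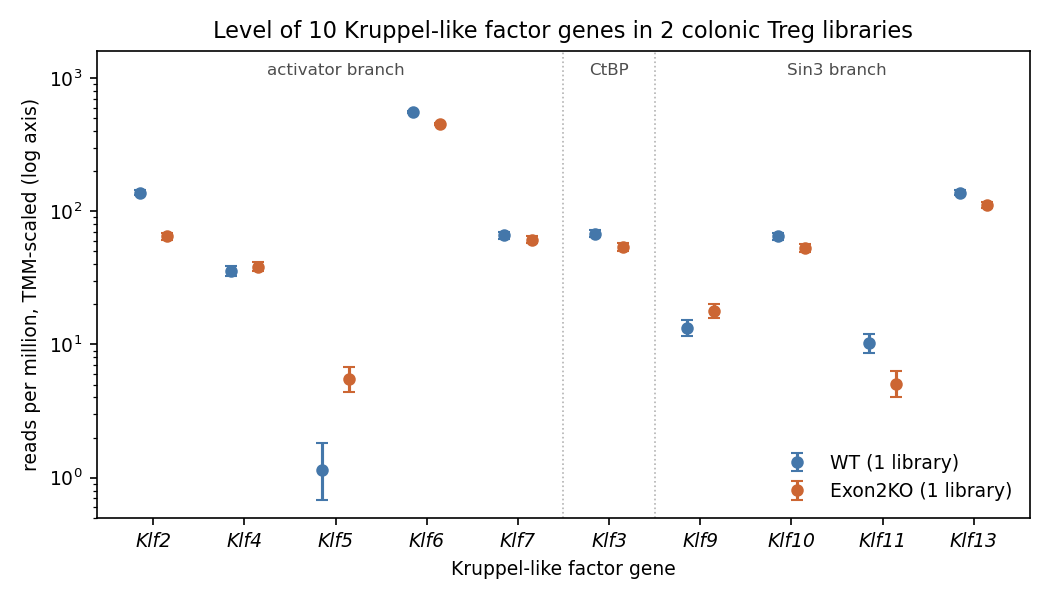
Level of the 10 members in CPM after TMM scaling (log axis), with 95% Poisson intervals, for the WT library (blue) and the Exon2KO library (orange), grouped by branch. Klf6 is highest in both libraries, and the largest gaps are those of Klf5 (1.15 and 5.50), Klf2 (137 and 64.8) and Klf11 (10.2 and 5.07).

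Klf2 (ENSMUSG00000055148, chromosome 8, 72319033 to 72321656, plus strand, GRCm38) had 2157 reads in WT and 1036 in Exon2KO. As levels these were 137 CPM (reads per 1000000 of the TMM-scaled library size) with a 95% Poisson interval of 132 to 143, and 64.8 CPM (60.9 to 68.9). The counting intervals lay far apart. The log2 ratio was -1.08 (95% Clopper-Pearson interval -1.19 to -0.98), 2.12-fold lower in Exon2KO. Scaled by total counts alone, Klf2 was at -0.98 and missed the 2-fold threshold. The authors' deposited table gives Klf2 a log2 fold change of -1.08 with an adjusted p-value of 0.134. In bulk RNA, fewer cells that express a gene and less of its RNA per cell cannot be told apart.

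Klf4 (chromosome 4, 55527143 to 55532466, minus strand), the nearest relative of Klf2 within the activator branch apart from the blood gene Klf1, restrains division in T cells and acts in the differentiated gut epithelium. It had 560 reads in WT and 613 in Exon2KO, or 35.7 CPM (32.8 to 38.8) and 38.3 CPM (35.4 to 41.5). These intervals overlapped, and the log2 ratio of 0.10 (-0.06 to 0.27) was not a detectable difference at this depth. Klf2 and Klf4 thus differed in their ratios, by -1.19 on the log2 scale (exact conditional interval -1.39 to -0.99), a value that does not depend on how the libraries are scaled. Per gene length, Klf2 stood 6.36 times above Klf4 in the WT library and 2.79 times above it in the Exon2KO library, by the FPKM values the authors deposited.

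Klf6 (chromosome 13, 5861482 to 5870394, plus strand), which is broadly expressed and responds quickly to stimuli and injury, was the most abundant member in both libraries. It had 8731 reads in WT and 7232 in Exon2KO, or 556 CPM (545 to 568) and 452 CPM (442 to 463). The log2 ratio was -0.30 (-0.34 to -0.25), below the 2-fold threshold although the counting intervals did not overlap. Klf7 (chromosome 1, 64029447 to 64122282, minus strand), its closest relative by finger DNA, had 1038 and 978 reads, or 66.1 CPM (62.2 to 70.3) and 61.2 CPM (57.4 to 65.1). Its log2 ratio was -0.11 (-0.24 to 0.01), and the difference between Klf6 and Klf7 in ratio was small, at -0.19 (-0.32 to -0.05).

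Klf5 (ENSMUSG00000005148, chromosome 14, 99298691 to 99315036, plus strand) maintains proliferating cells of the gut crypt. It had the fewest reads of any member over both libraries, with 18 in WT and 88 in Exon2KO, or 1.15 CPM (0.680 to 1.81) and 5.50 CPM (4.41 to 6.78). The log2 ratio was 2.14 (1.52 to 3.08). The plain quotient of the CPM values, without the prior count, was 4.80. Klf5 was the only member with an adjusted p-value below 0.05 in the authors' deposited table (0.00209, log2 fold change 2.25), where 4.58% of 22447 genes had one. Epithelial markers were read beside it. Of 10 such markers 8 were called higher and 0 lower. The summed level of all 10 went from 91.8 CPM in WT to 352 CPM in Exon2KO, 3.83-fold higher. Epcam alone held 49.8 CPM of the WT sum and 38.1 CPM of the Exon2KO sum. Krt8 went from 160 to 1604 reads and Krt19 from 81 to 1430, while Epcam (782 and 609, log2 ratio -0.39, -0.54 to -0.23) and Krt20 (31 and 36, interval -0.54 to 0.93) were not called. Cdx2, a transcription factor of intestinal epithelium, had 0 reads in WT and 30 in Exon2KO. The part of epithelial RNA in the Klf5 value was not tested.

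**Figure D2:**
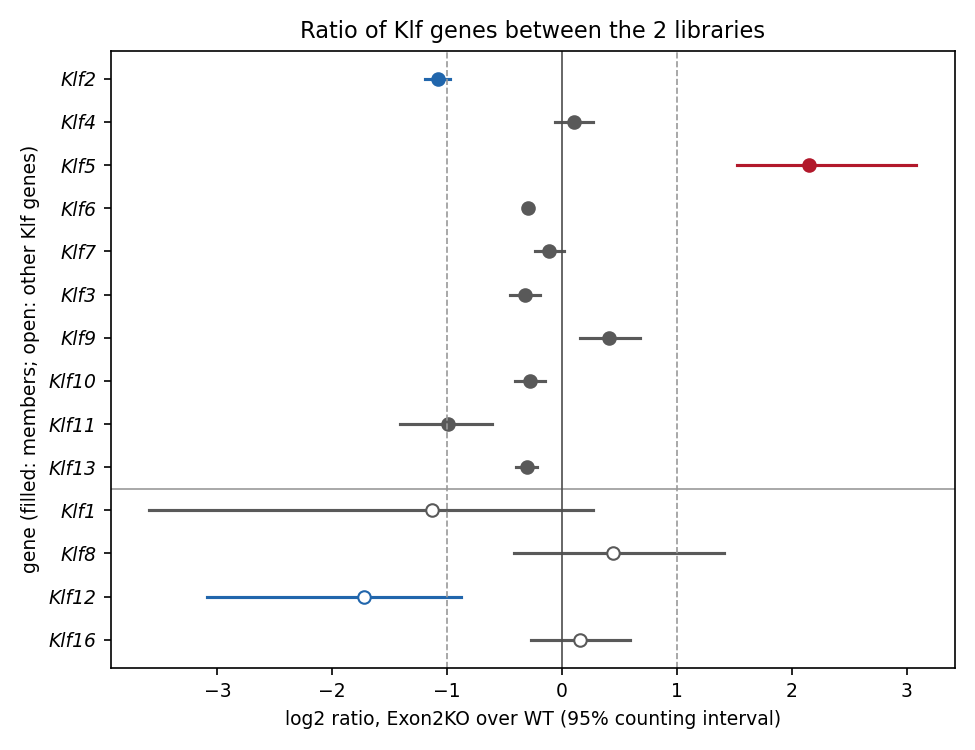
Log2 ratio of Exon2KO over WT for the 10 members (filled) and the other 4 Klf genes with at least 10 reads (open), with 95% Clopper-Pearson intervals and dashed lines at 2-fold. Klf2 (-1.08) and Klf12 (-1.72) are called lower (blue) and Klf5 (2.14) higher (red), and Klf11 (-0.99) lies at the line.

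Klf3 (chromosome 5, 64803388 to 64832901, plus strand), the CtBP-recruiting repressor, had 1062 reads in WT and 867 in Exon2KO, or 67.7 CPM (63.7 to 71.9) and 54.2 CPM (50.7 to 58.0). Its log2 ratio was -0.32 (-0.45 to -0.19). Klf12, a repressor of the same branch outside the 10 members, had few reads, 37 in WT and 10 in Exon2KO, and was called lower, at -1.72 (-3.09 to -0.88). Klf8, the remaining CtBP-recruiting factor, had 19 and 27 reads, and its interval of -0.42 to 1.41 spanned 0.

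In the Sin3-recruiting branch, Klf13 (chromosome 7, 63886351 to 63938915, minus strand), known in T cells as an activator of the chemokine gene Ccl5, had 2164 reads in WT and 1781 in Exon2KO. Its levels were 138 CPM (132 to 144) and 111 CPM (106 to 117), with a log2 ratio of -0.31 (-0.40 to -0.22). Ccl5 had 1025 and 133 reads and was called lower, at -2.95 (-3.245 to -2.71). Ccl5 is also made by cytotoxic cells, and Gzma, a granule gene of such cells, went from 5153 to 164 reads. Cd8a had 23 and 6 reads and Cd8b1 138 and 91. Of the other 3 markers of CD8 T and NK cells, Ncr1 (0 and 10 reads) was called higher, and Gzmb (43499 and 63649) and Klrb1c (15 and 18) were not called. The part of such cells in the Ccl5 value was not tested.

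Klf10 (chromosome 15, 38291463 to 38300706, minus strand) is induced by TGF-beta and has a known role in Treg cells. It had 1017 reads in WT and 853 in Exon2KO, or 64.8 CPM (60.9 to 68.9) and 53.4 CPM (49.8 to 57.1), a log2 ratio of -0.28 (-0.41 to -0.15). Its close relative Klf11 (chromosome 12, 24651274 to 24662789, plus strand), also TGF-beta inducible, had 160 and 81 reads, or 10.2 CPM (8.68 to 11.9) and 5.07 CPM (4.02 to 6.30). Klf11 was at -0.99 (-1.41 to -0.61), just short of the threshold. Without the prior count its levels differed 2.01-fold, so its call turns on that setting. The ratio of Klf10 exceeded that of Klf11 by 0.73 on the log2 scale (0.31 to 1.15), estimated from the reads without the prior count.

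Klf9 (chromosome 19, 23141226 to 23166911, plus strand), a gene induced by glucocorticoids and thyroid hormone, went the other way from most members. It had 210 reads in WT and 285 in Exon2KO, or 13.4 CPM (11.6 to 15.3) and 17.8 CPM (15.8 to 20.02), a log2 ratio of 0.41 (0.15 to 0.68) without a 2-fold difference. Of 6 glucocorticoid-linked genes, 1 was called, Ddit4, an inhibitor of mTOR signalling, at 1.05 (0.70 to 1.43). Nr3c1, the glucocorticoid receptor gene, had 12321 and 12405 reads, and Tsc22d3, a target of the receptor, was at -0.39 (-0.44 to -0.34).

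Klf3, Klf6, Klf10 and Klf13, which belong to all 3 branches, had log2 ratios within -0.32 to -0.28. Each of these intervals overlapped the other 3. None of the 4 was called, and they were grouped here after their values were seen. The total for the 10 members was 17117 reads in WT, 0.105% of the library (95% Wilson interval 0.104 to 0.107), and 13814 in Exon2KO, 0.0896% (0.0881 to 0.0911).

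**Figure D3:**
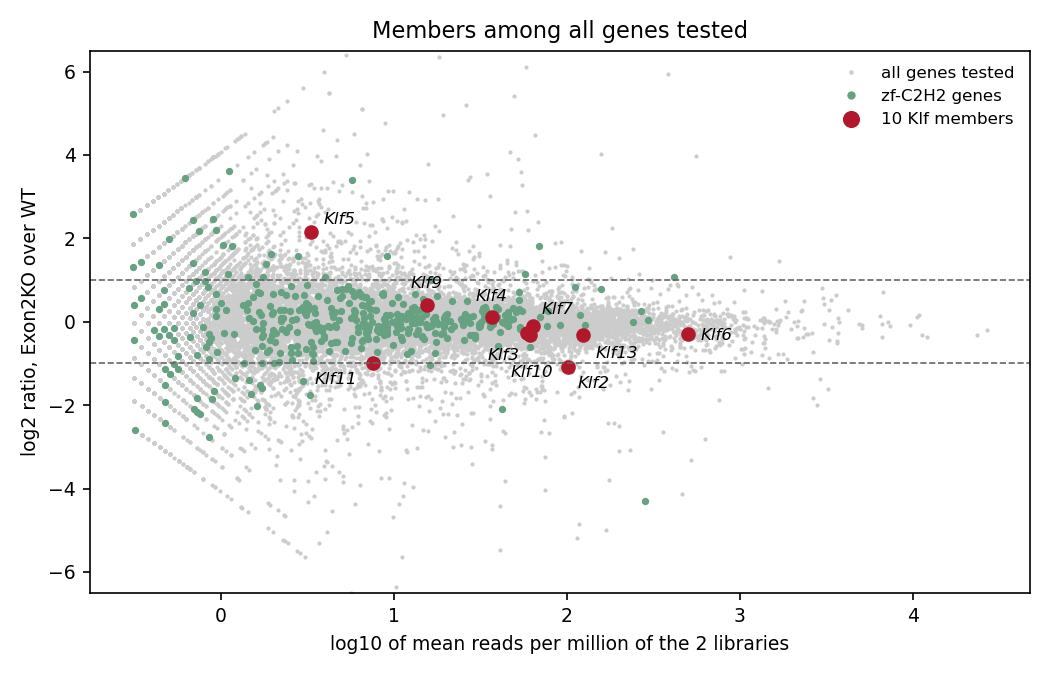
Log2 ratio (Exon2KO over WT) against the log10 of the mean CPM of the 2 libraries for the genes tested (grey), the zf-C2H2 zinc finger genes (green) and the 10 members (red), with dashed lines at 2-fold. Klf2 and Klf5 lie beyond the lines and the other members between them, and 13 genes fall outside the axis limits of 6.5 on either side.

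Between genes, levels were compared per length, by the deposited FPKM. In WT the order was Klf6 (126 FPKM), Klf2 (74.0), Klf13 (18.2), Klf10 (15.4), Klf4 (11.6), Klf7 (8.09), Klf3 (5.99), Klf9 (4.08), Klf11 (2.34) and Klf5 (0.219), and no neighbours in it had overlapping counting intervals. In Exon2KO the first 6 places were the same, at 104, 35.3, 14.9, 12.8, 12.6 and 7.56 FPKM. There Klf10 and Klf4 could not be separated by their intervals, nor could Klf9 (5.49) and Klf3 (4.85), or Klf11 (1.17) and Klf5 (1.06). Klf6 supplied 47.4% of the family's summed FPKM in WT and 52.0% in Exon2KO, and Klf2 27.8% and 17.7%. Among protein-coding genes tested, Klf6 stood at percentile 96.6 of FPKM in WT and 96.1 in Exon2KO, and Klf2 at percentiles 94.2 and 89.2. These orders depend on the gene lengths behind the deposited FPKM. The deposited length of Klf3 is 11243 bases against 5221 for its longest GENCODE transcript, that of Klf5 5201 against 3352, that of Klf10 4179 against 3044, and that of Klf9 3263 against 4486. With the longest transcript as the length, a choice made after seeing the data, Klf6 and Klf2 stayed first and second in both libraries. Klf3 then came before Klf4 and Klf7 in WT, at 12.9 against 11.7 and 8.59 FPKM. In Exon2KO Klf3 (10.4) came before Klf7 (8.02) and Klf9 (3.99), Klf10 (17.6) before Klf13 (17.5), and Klf5 (1.65) before Klf11 (1.25). The ratios between the libraries do not use these lengths.

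The table assigns 576 genes to the zf-C2H2 class of zinc finger factors, to which the KLFs belong. Of the 411 tested, 24 were called higher and 23 lower, and their median log2 ratio was -0.0011. Ranked from the lowest ratio, Klf2 was number 25, Klf11 number 29 and Klf5 number 403. Among the 59 with at least 1000 reads, 3 were called lower, namely Ikzf2 (-4.29) and Ikzf4 (-2.09), which encode Ikaros-family factors of Treg cells, and Klf2 at rank 3. Another 3 were called higher, Ikzf3 (1.08), also of the Ikaros family, Zfp948 (1.15) and Zeb2 (1.82). Klf3, Klf13, Klf6 and Klf10 held ranks 6 to 9 in that order, which restates their near-equal ratios given above. Of the 59, 10.2% were called, beside 4.73% of all genes with at least 1000 reads.

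Of the 7 Klf genes outside the 10 members, 4 had enough reads for the test. Klf12 was the 1 called. Klf16, a Sin3-recruiting factor, had 87 and 99 reads (0.16, -0.27 to 0.59), and Klf1, the red blood cell factor, had 11 and 4. Klf15 had 1 read in WT and 0 in Exon2KO, and Klf14 and Klf17 had 0 in both, with upper limits (3 reads) of 1.84e-05% for WT and 1.95e-05% for Exon2KO. Of the related Sp factors, 0 of 4 tested were called. Sp3 had the highest ratio among them, with 1813 and 3184 reads, at 0.79 (0.70 to 0.87).

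Genes known to depend on KLF2 were read beside it. Of 4 T cell genes that KLF2 holds up, 1 was called lower and 0 higher, beside 6.81% and 7.31% of all genes tested. S1pr1, the receptor for sphingosine-1-phosphate that lets T cells leave tissue, went from 1364 to 462 reads, at -1.58 (-1.74 to -1.44). The other 3 genes were not called. Ccr7, a lymph node homing receptor, was at -0.72 (-0.76 to -0.68), Itgb7, an integrin chain for gut homing, at -0.30 (-0.35 to -0.26), and Cdkn1a, a cell cycle inhibitor, at 0.07 (0.03 to 0.11).

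Of 4 genes that KLF2 is known to hold down, 3 were also called lower and 0 higher, against the direction in the list's name. Over all genes tested these shares were 6.81% and 7.31%. The 3 were the chemokine receptor genes Ccr3 (339 and 38 reads, -3.12, -3.71 to -2.70) and Cxcr3 (2099 and 661 reads, -1.69, -1.82 to -1.57), and Myc, a driver of growth (1631 and 460 reads, -1.85, -2.005 to -1.70). Il4, with 36 and 53 reads, had an interval of -0.11 to 1.18. Both lists were drawn up with earlier results of these data known and are no independent evidence of a direction.

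**Figure D4:**
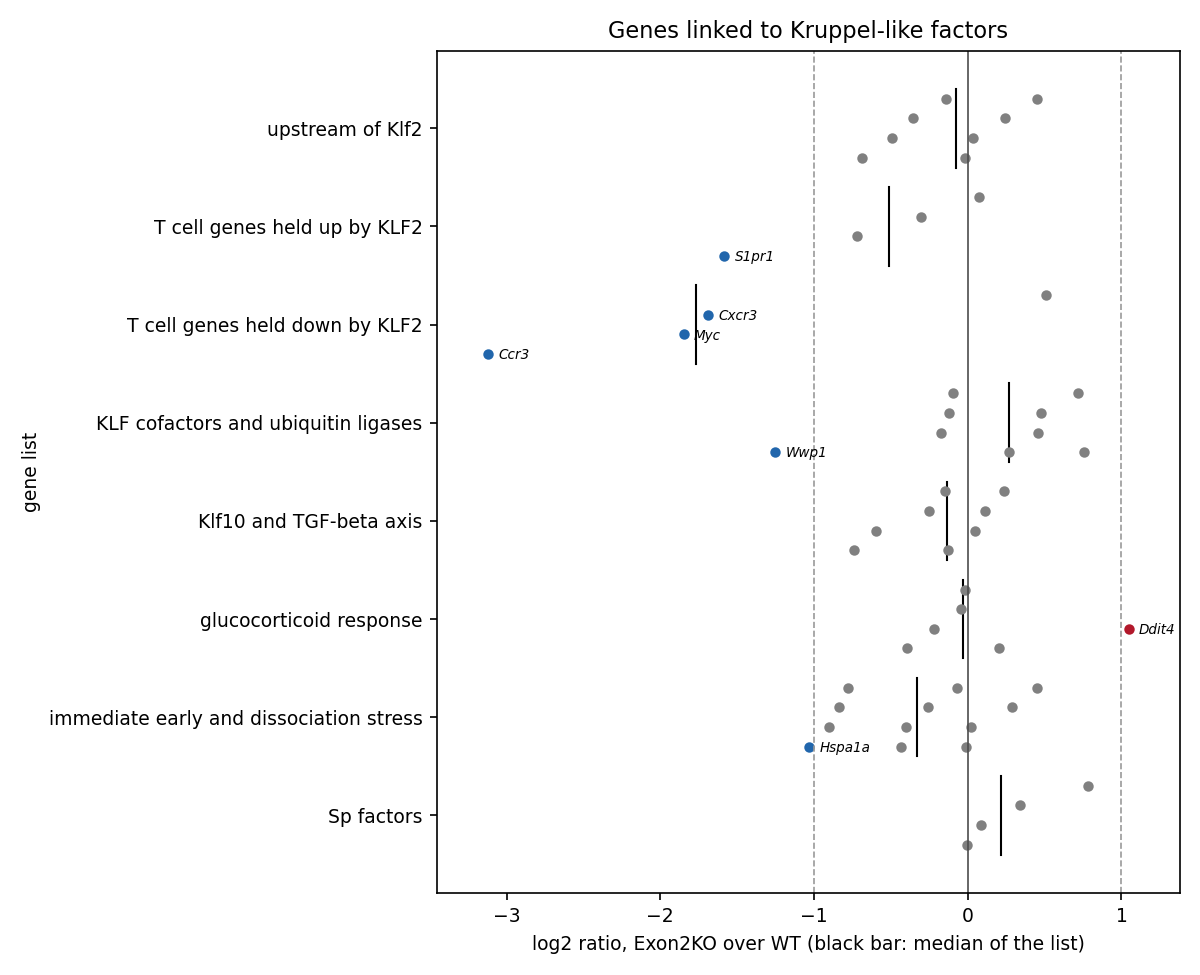
Log2 ratio of each tested gene in 8 lists linked to the Kruppel-like factors, with called genes in colour and named, the median of each list as a black bar and dashed lines at 2-fold. S1pr1 among the genes held up by KLF2, and Ccr3, Cxcr3 and Myc among those held down, all lie left of the -1 line.

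Upstream of Klf2, 0 of 8 genes were called. Foxo1, a forkhead factor that drives Klf2 in resting T cells, had 6902 and 7186 reads (0.03, -0.02 to 0.08). The kinases of the ERK5 route to MEF2 were Map3k3 at -0.36 (-0.51 to -0.20), Map2k5 at -0.69 (-0.87 to -0.52) and Mapk7 at -0.02 (-0.35 to 0.31). MEF2 factors, which act on the Klf2 promoter, gave 0.45 (0.24 to 0.66) for Mef2a, -0.49 (-0.73 to -0.25) for Mef2c and -0.14 (-0.23 to -0.05) for Mef2d. Of 9 cofactors and ubiquitin ligases, 1 was called. Wwp1, a ubiquitin ligase that targets KLF2 and KLF5, went from 246 to 104 reads, at -1.25 (-1.61 to -0.93). The corepressor genes Sin3a, Sin3b, Ctbp1 and Ctbp2 lay between -0.17 and 0.76.

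Of 8 genes that tie Klf10 to TGF-beta signalling, 0 were called. Tgfb1, a target of KLF10 in Treg cells, had 1714 and 1884 reads (0.11, 0.01 to 0.21), Smad7, which KLF10 represses, was at -0.60 (-0.80 to -0.40), and Smad3, a transducer of the signal, at -0.74 (-0.99 to -0.50). Itch, the ligase that modifies KLF10, was at 0.05 (-0.11 to 0.20).

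Several KLFs respond within minutes to stimulation or to tissue dissociation, so 12 immediate early and stress genes were read beside them. Of these 1 was called, Hspa1a, a heat shock gene, at -1.03 (-1.12 to -0.94). In 9 of the 12 the ratio lay below 0, and the median was -0.33, beside -0.29 for the members. All 12 had at least 1000 reads over both libraries. Among all genes of that depth 56.2% lay below 0, with a median of -0.044, against 49.7% and 0.0035 for all genes tested. Fos (25557 and 26446 reads, 0.02) and Egr1 (3818 and 3858 reads, -0.01) were near 0, whereas Dusp1 was at -0.90 (-0.93 to -0.88) and Atf3 at -0.84 (-0.91 to -0.76). Hspa1b was at -0.78, Ier2 at -0.43 and Zfp36 at -0.40, and Fosb (0.45) and Jun (0.29) lay above 0. The part of such a response in the values of Klf2 and the other members was not tested.

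Klf2 is also abundant in endothelium and B cells. Of 8 endothelial markers 5 were called higher in the Exon2KO library and 0 lower, with a summed level of 65.4 CPM in WT and 71.9 CPM in Exon2KO, most of it Pecam1 (917 and 834 reads), and Cdh5 at 0 reads in WT and 15 in Exon2KO. Of 5 B and plasma cell markers 2 were called lower and 0 higher. They were Ighm (4561 and 857 reads) and Ms4a1 (47 and 10). The summed level was 8068 CPM in WT and 7261 CPM in Exon2KO, of which Jchain alone held 7652 and 7113 CPM. In all 5 markers the ratio lay below 0, with Cd79a at -0.36 and Cd79b at -0.46, as it did in 49.7% of all genes tested. The part of B cells in the Klf2 value was not tested. Myeloid markers, which would come with Klf4, summed to 29.4 CPM and 34.3 CPM, with 0 of 4 tested called and Itgax at 0 in both libraries and S100a8 at 0 in WT. In fibroblast and smooth muscle markers, 2 of 7 tested were called higher, and the sums were 21.7 CPM and 24.3 CPM. Of 6 CD8 T and NK cell markers 1 was called higher (Ncr1, at 0 in WT) and 2 lower. The sums were 3111 CPM in WT and 3999 CPM in Exon2KO, of which Gzmb alone held 2772 and 3981 CPM. The ratio lay above 0 in 3 of the 6, Gzmb among them, and below 0 in 3, among them Gzma (328 and 10.3 CPM).

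**Figure D5:**
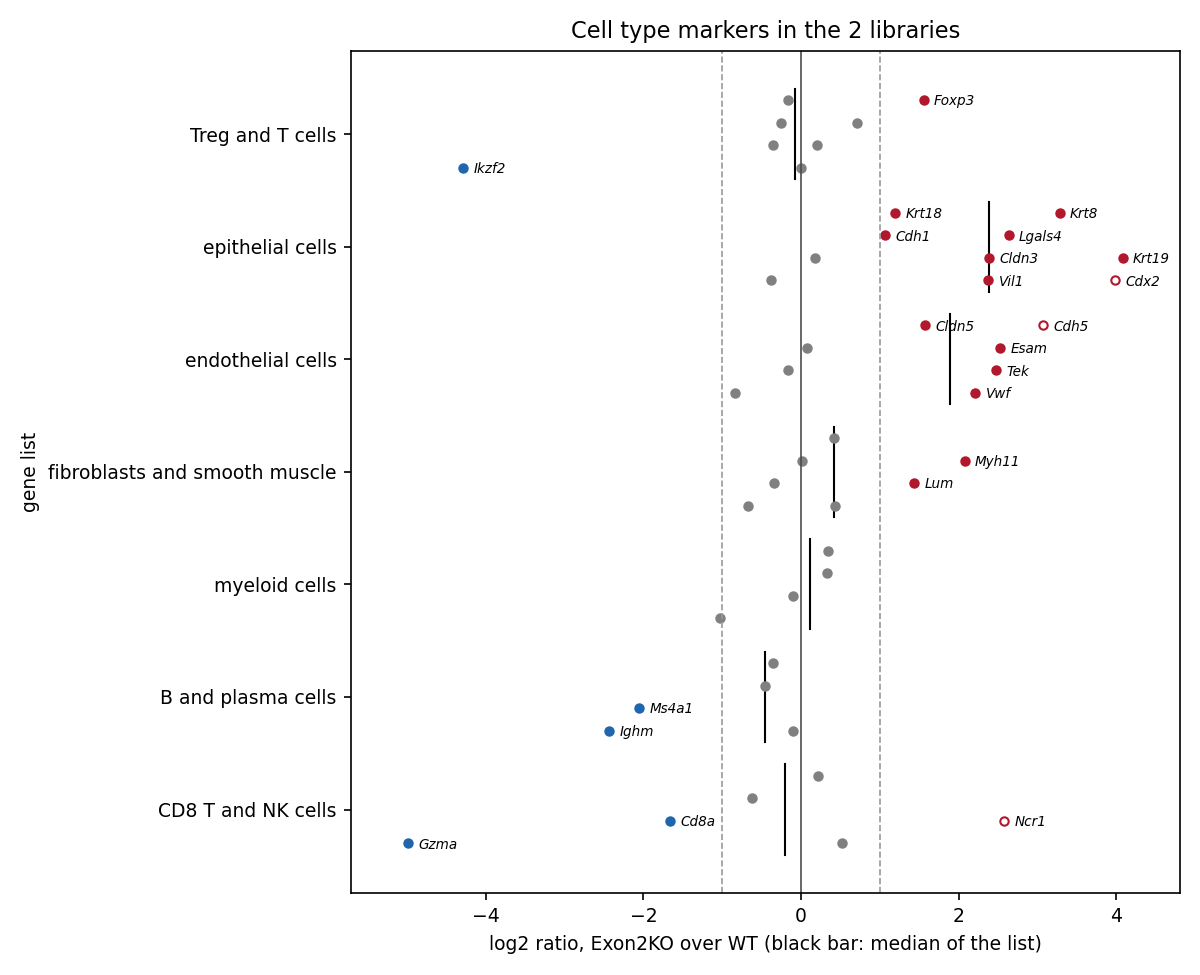
Log2 ratio of each tested cell type marker by list, with called genes in colour and named, the median of each list as a black bar and dashed lines at 2-fold. Epithelial markers, 8 of 10 of them called, lie mostly to the right and the called B cell markers to the left, and open points had 0 reads in WT, so their place depends on the prior count.

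The DNA before the start site is shown for the member called lower, Klf2, for Klf11 at the threshold, and for Klf6, the most abundant. The sequences are RefSeq's for GRCm38.p6, plus strand, and end before the deposited gene start. Capitals mark matches, on either strand, to the GC box GGGCGG, the CACCC box CACCC, the forkhead motif TGTTTAC, or the MEF2 and CArG consensus.
Klf2, chr8:72318812-72319032: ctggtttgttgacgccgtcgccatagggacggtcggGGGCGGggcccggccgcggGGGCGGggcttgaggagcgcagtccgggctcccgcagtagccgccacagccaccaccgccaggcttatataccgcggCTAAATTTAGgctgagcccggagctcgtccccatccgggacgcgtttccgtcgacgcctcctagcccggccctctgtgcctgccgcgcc
Klf11, chr12:24651121-24651273: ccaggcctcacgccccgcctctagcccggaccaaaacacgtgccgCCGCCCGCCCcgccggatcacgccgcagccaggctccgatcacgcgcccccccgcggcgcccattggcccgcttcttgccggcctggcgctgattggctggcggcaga
Klf6, chr13:5861239-5861481: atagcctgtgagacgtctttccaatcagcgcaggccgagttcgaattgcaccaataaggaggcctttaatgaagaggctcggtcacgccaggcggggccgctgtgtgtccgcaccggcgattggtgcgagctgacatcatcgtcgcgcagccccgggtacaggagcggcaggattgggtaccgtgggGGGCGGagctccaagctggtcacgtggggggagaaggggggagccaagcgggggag

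In the stretches shown, Klf2 held 2 GC boxes and 1 MEF2 match, Klf11 2 GC boxes that overlap each other, and Klf6 1 GC box. RefSeq windows of 300 bases (250 before to 50 after the start site) were at hand for 8 of the 10 members, all but Klf5 and Klf10. A GC box lay in 7 of the 8 windows and in 35.7% of all 32851 promoter windows of that length. A CACCC box lay in 5 of 8, against 57.5% of all windows. The forkhead motif was found in 1 member's window (Klf9), against 3.65% of all, and the MEF2 consensus in 1 (Klf2), against 3.19%. No member's window held a CArG match, against 1.63% of all. The MEF2 consensus replaced a single spelling of it after the Klf2 letters had been seen. These matches describe the letters only.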

How the data were processed

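RNA came from 1 WT and 1 Exon2KO sample of colonic Treg cells, and per the labels' protocols 1 µg entered an NEBNext Ultra preparation. The submitters' processing notes name HISAT2 2.0.5, StringTie 1.3.3b, featureCounts 1.5.0-p3, DESeq2 1.16.1 and the build mm10 (GRCm38), without roles. What the authors deposited is raw counts of reads by gene, FPKM values, a scaled count signal (not used here), and a log2 fold change with p-value and adjusted p-value, per the file headers.

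Counts were scaled with TMM (edgeR 4.0.16, R 4.3.3; factors 0.964 for WT and 1.04 for Exon2KO). Genes with 10 or more reads in all were compared by a 2-sided exact binomial test with Benjamini-Hochberg adjustment over all of them, and called at an adjusted p-value below 0.05 and at least 2-fold. The test compares the reads of 2 libraries, not the genotypes. It was tried on simulated Poisson counts without spread between samples, which cannot show how often real libraries would give false calls. Python 3.11.15 with scipy 1.17.1 was used. The text names the 10 members and genes of the lists with at least 10 reads. Ikzf2, Ikzf3, Ikzf4, Zfp948 and Zeb2 in the zinc finger ranking, and genes below that minimum, were named after their values were seen. In 3 lists (genes held up by KLF2, genes held down by it, B and plasma cells) 1 gene each is not reported here, and the counts, sums and medians printed or drawn are those of the shortened lists. Members and lists were chosen with earlier results of these data known. Alternatives were other scalings, read minimums, fold thresholds, prior counts and assumed spreads between samples.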

Additional observations from a re-analysis of the deposited data

How the results depend on the processing

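The calls turned most on how far replicates would vary, for which these 2 libraries hold no estimate. When edgeR's exact test was given a coefficient of variation of 0.2, 1 member was called (Klf5), beside 6.42% of genes tested, and Klf2, at -1.08, was not (adjusted p-value 0.108). With 0.4 the number was 0, beside 0.945%, and both Klf2 (-1.08) and Klf5 (2.14, adjusted p-value 0.437) lost their call. Total counts left 1 member called, with Klf2 at -0.98. That scaling moved the median of all genes from 0.0035 to 0.108, and no member by more than 0.106. A 4-fold threshold left 1 (Klf5). Klf11 gained a call with a prior count of 0.5 (-1.004), and, in an alternative chosen after seeing the data, when the threshold was set on the ratio without a prior count. It also passed a 1.5-fold threshold. Of 50 ratios recomputed under other scalings and prior counts, 48 kept direction and call and none changed sign. No paired analysis was possible because there were no replicate libraries to pair, and none could be left out. Depth limits Klf5 and the rarer Klf genes most.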
